A study of Homo sapiens with 12 samples.

Results

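The melanoma cell lines Malme3M and SkMel-19 were compared in how their transcripts responded to PLX4032, a RAF kinase inhibitor also known as vemurafenib. Both are established human lines and, like all lines of the series, have the V600E mutation in BRAF. Each line was grown in RPMI medium with fetal bovine serum and harvested 8 h after addition of 0.1% DMSO, the solvent control, or of PLX4032 at 250 or 1000 nM. These are 6 of 12 arrays and 2 of 5 lines, chosen because they alone were treated at both doses, with 1 array per line and condition. The other 6 arrays hold SkMel-1, SkMel-5 and SkMel-28 with DMSO or 250 nM PLX4032 and are used below as values beside the named genes.

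BRAF is a kinase that signals through MEK to ERK, and the V600E form signals without input from RAS. ERK switches on immediate early transcription factors, ETS factors and cyclin D1. It also switches on its own inhibitors, among them the dual-specificity phosphatases, the Sprouty proteins and the SPRED proteins, so the abundance of these transcripts reads out the output of the pathway. Melanoma cells retain parts of the pigment cell programme, which is directed by the transcription factor MITF.

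The response of a line was the mean of its 250 and 1000 nM arrays minus its DMSO array, on the log2(signal + 12) scale, and the quantity described here is the response of Malme3M minus that of SkMel-19. A negative difference therefore means a deeper fall, or a smaller rise, in Malme3M. Folds are taken on that scale and so understate the change of dim genes. Signals are the deposited intensities, on a linear scale shared by all arrays, and 85.7 is the signal of the filter below which a gene's mean kept it from being tested. Differences were tested in 7178 of 11963 named genes with limma, and a gene was called at a Benjamini-Hochberg adjusted p under 0.05. The treated arrays of a line differ in dose and share 1 DMSO array, so the errors hold the spread between doses but not that between DMSO cultures, and agreement at both doses is not independent. With 1 line on each side, the tests compare these arrays and not classes of melanoma.

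The 6 arrays had median signals of 127.6 to 130.4 in Malme3M and 102.5 to 105.8 in SkMel-19, and the log2 ratio of 3' to 5' GAPDH probe sets lay between -0.15 and -0.09 in all of them. Pigment cell markers bore out the label. Of 9 melanocyte lineage genes on the array, 9 in SkMel-19 and 8 in Malme3M lay above the filter signal on all 3 arrays, PAX3 in Malme3M being the exception. Summed fibroblast markers were higher in Malme3M (876.8 to 1012.4) than in SkMel-19 (633.5 to 659.8), with 5 and 7 of 9 markers below the filter signal on every array, and their part in the differences below was not tested. Of the blood markers only LCP1 in Malme3M lay above it, and no endothelial marker did on all arrays of a line. Of 10 keratinocyte or epithelial markers, KRT10, KRT18, CDH1 and SFN lay above the filter signal on all arrays of both lines, and DSP on those of SkMel-19. Their sums were 7349.6 to 7645.6 in Malme3M and 4581.0 to 5079.0 in SkMel-19.

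Promoter sequence is shown first for 4 genes whose responses are described below, since ERK acts on transcription largely through ETS factors and MITF and MYC bind E-boxes. Each stretch lies in the 250 bases before the first listed RefSeq start of the gene on GRCh38.p14, on the plus strand, with the matched letters in capitals. IER2 (chr19:13150354-13150410) and CREM (chr10:35126662-35126728) carry the ETS letters CCGGAAG, read on the minus strand and so printed as CTTCCGG, and SLC20A1 (chr2:112645703-112645768) and TBL1X (chrX:9463197-9463262) carry the E-box CACGTG.
IER2: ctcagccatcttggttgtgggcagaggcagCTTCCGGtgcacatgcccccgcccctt
CREM: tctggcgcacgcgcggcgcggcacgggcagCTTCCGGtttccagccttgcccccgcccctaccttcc
SLC20A1: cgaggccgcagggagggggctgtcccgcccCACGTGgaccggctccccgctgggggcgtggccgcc
TBL1X: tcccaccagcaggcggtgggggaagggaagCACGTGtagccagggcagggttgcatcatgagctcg
The matches begin 27, 154, 206 and 68 bases before the start. IER2 and SLC20A1 fell more deeply in Malme3M, whereas CREM fell in SkMel-19 and TBL1X rose in Malme3M. Each motif is thus shown with a gene from each side of the comparison, which is a choice of examples and not a result.

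Over the genes called in the difference, 114 of 142 with lower values in Malme3M and 57 of 67 with higher values had a promoter in the table. On either strand, CCGGAAG was found in 10.5% of the first, 7.02% of the second and 17.2% of the 6058 tested genes with a promoter. The E-box CACGTG was found in 7.02%, 19.3% and 9.44%, the AP-1 letters TGANTCA in 5.26%, 3.51% and 3.42%, the cAMP response element TGACGTCA in 5.26%, 1.75% and 3.27%, and the CArG box in 1.75%, 1.75% and 1.12%. The sterol regulatory element was found in none of either set and in 0.099% of all. A match of letters is a description of the sequence and was not tied to binding in these cells.

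Few genes passed the test of the difference, and more of them with a lower value in Malme3M. An unadjusted limma p under 0.05 was reached by 1329 of 7178 genes, so few calls do not mean that few responses differed. The difference was called as lower in Malme3M for 142 genes (1.98% of those tested) and as higher for 67 (0.933%). Of these 209, all had the same sign at both doses, as did 5332 of all 7178 genes, which share their DMSO arrays. A size of at least 1 on the log2 scale at both doses was reached by 98 genes in the lower direction (1.37%) and 32 in the higher (0.446%), 105 of these 130 being called. Only EGR3, LIF, CHST2, IGFBP3, CEACAM1, IER3, ST3GAL1, SPRED2 and SMTN reached 2 at both doses in the lower direction, and SPOCK1 in the higher. The number of calls moved with the settings: 50 genes were called with a dose term and 19 when all 12 arrays set the error. In the fit to all 12 arrays SkMel-1, SkMel-5 and SkMel-28 were given a common response, so differences among their responses entered the error. Leaving out either treated SkMel-19 array lowered the number strongly, and leaving out either of Malme3M did not. With an array left out the error came from the other line alone, and the cause was not tested. Of the 58 named genes called, 18 kept the call with no filter, 16 with signals under the filter raised to it, 31 with the median of a gene's probe sets, 31 with no trend in the prior, 28 with a dose term and 13 with all 12 arrays.

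Each line's own response was broader in Malme3M, where 2281 genes were called (31.8%, 1247 up and 1034 down), than in SkMel-19, with 1393 (19.4%, 768 up and 625 down). Without the 250 nM array of SkMel-19, 649 genes were called in that line, and without its 1000 nM array 862. Falls of at least 2 on the log2 scale were called for 68 genes in Malme3M and 27 in SkMel-19, and rises of that size for 10 and 2. Of 930 genes called in both lines, 910 moved in the same direction and 20 in opposite directions.

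Among the 142 lower genes, 39 fell in both lines, 68 fell in Malme3M without a call in SkMel-19, 21 rose in SkMel-19 without a call in Malme3M, 13 fell in Malme3M and rose in SkMel-19, and CEMIP rose in both. Among the 67 higher genes, 34 rose in Malme3M without a call in SkMel-19, 14 rose in both, 12 fell in SkMel-19 without a call in Malme3M, 6 rose in Malme3M and fell in SkMel-19, and SLC67A1-AS fell in both. The DMSO signal was at least 2-fold higher in Malme3M in 67 of the 142 lower genes (47.18%) and within 2-fold in 73 (51.41%). It was at least 2-fold lower in Malme3M in 19 of the 67 higher genes (28.36%) and within 2-fold in 41 (61.19%). Over all genes tested it was at least 2-fold higher in Malme3M in 11.51%, at least 2-fold lower in 8.18% and within 2-fold in 80.31%. The DMSO arrays enter the difference that chose these genes, so these counts only describe them. In 12 lower and 3 higher genes all SkMel-19 arrays lay under the filter signal, which leaves the size of the response in that line to dim values.

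**Figure D1:**
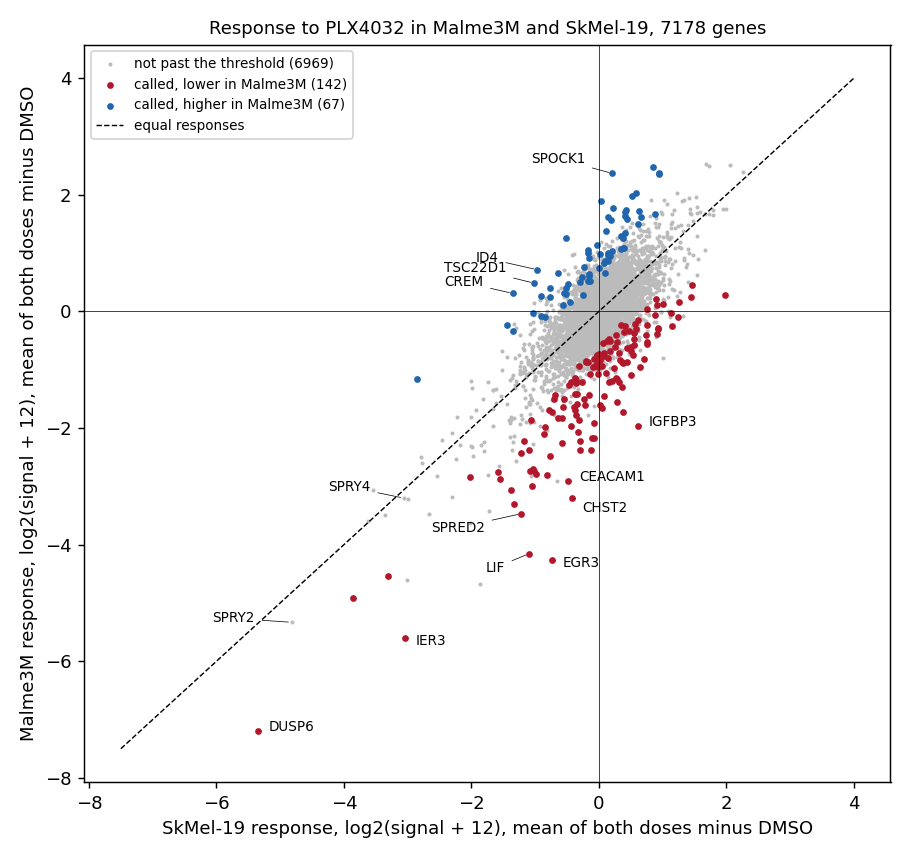
Response of each of 7178 genes in SkMel-19 (x axis) and Malme3M (y axis), each the mean of the 250 and 1000 nM arrays minus DMSO on the log2(signal + 12) scale, with the line of equal responses dashed. Red points are the 142 genes called lower and blue points the 67 called higher in Malme3M; SPRY2 and SPRY4 lie near the dashed line, DUSP6 and IER3 well below it.

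In the list of ERK feedback inhibitors most transcripts fell in each line, and 3 of the 11 tested were called as falling more deeply in Malme3M. Of these 11, 8 were called as falling in each line, against 1034 in Malme3M and 625 in SkMel-19 of all 7178 genes. The median response was -3.20 in Malme3M and -1.74 in SkMel-19, and the median difference was -0.52 against 0.02 over all genes tested. That median is also the difference of SPRY2, whose treated signals lay under the filter signal. The 3 were DUSP6, SPRED2 and IER3, and none was called in the other direction. IER3 is counted as a member of the list, although it modulates ERK activity and is not simply an inhibitor. Over all genes, 142 of 7178 (1.98%) were called lower and 67 (0.933%) higher, shares that apply to each list count below.

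DUSP6 encodes the phosphatase that inactivates ERK. Its signal in Malme3M was 5927 with DMSO, 31.5 at 250 nM and 25.4 at 1000 nM, and in SkMel-19 it was 1067, 12.2 and 16.8. All 4 treated arrays lay under the filter signal, and the treated levels of Malme3M were above those of SkMel-19, so the line with the deeper fall was the one that began higher and also ended higher. The difference was -1.85 (SE 0.28, limma adjusted p = 0.0226, n = 2 treated arrays and 1 DMSO array per line, as for all values below). Its size rests on the pseudocount: with 1 in place of 12 the DUSP6 difference was -1.54 and was not called (limma adjusted p = 0.0925), and with dim signals raised to the filter it was -2.46. Other DUSP6 probe sets gave -2.10 and -2.47.

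SPRED2, which blocks activation of RAF by RAS, showed another pattern. Its signal was 1632, 164.7 and 112.8 in Malme3M and 1045, 463.3 and 423.0 in SkMel-19. The lines began within 2-fold of each other, and both treated Malme3M arrays ended below both of SkMel-19 (difference -2.25, SE 0.29, limma adjusted p = 0.0131). With the median over its probe sets the SPRED2 difference was -1.43 and was not called (limma adjusted p = 0.123). IER3, an immediate early gene that modulates ERK activity and apoptosis, showed the same order of levels, with 7348, 160.3 and 121.9 in Malme3M and 3271, 394.0 and 375.1 in SkMel-19. Its fall was 48.5-fold and 8.28-fold, a difference of -2.55 (SE 0.22, limma adjusted p = 0.00522).

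The Sprouty transcripts did not pass. SPRY2, an inhibitor of receptor signalling upstream of RAS, had signals of 1408, 32.8 and 15.7 in Malme3M and 2012, 49.3 and 72.4 in SkMel-19, a difference of -0.52 (SE 0.44, limma adjusted p = 0.60). That of its relative SPRY4 was -0.15 (SE 0.48, limma adjusted p = 0.915). The treated levels of both lay under the filter signal, and with all such signals raised to it the differences became 0.51 and 0.10, so their sign was not settled. PHLDA1, a pleckstrin-homology protein induced by ERK, fell from 4519 to 1199 and 1108 in Malme3M and from 4087 to 2818 and 3194 in SkMel-19. Here the starting levels were close and the treated levels stood apart (difference -1.52, SE 0.14, limma adjusted p = 0.00552). Its 4 other probe sets above the filter gave -1.10 to -1.95, but the median over all its probe sets, dim ones included, gave -0.70 and no call (limma adjusted p = 0.156).

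Among immediate early, ETS and AP-1 transcription factors, 5 of 28 tested were called lower in Malme3M and 0 higher. Over all 7178 genes 142 were called lower and 67 higher. The median difference of the list was -0.33. Of the 28, 22 fell in Malme3M and 17 in SkMel-19, against 1034 and 625 of all 7178 genes. With signals under the filter raised to its level the list's median difference was -0.01, so that median rests on dim values. EGR3, a zinc-finger factor, had the largest difference of all genes called. Its signal was 2471 with DMSO, 121.6 at 250 nM and 113.2 at 1000 nM in Malme3M, but 34.8, 18.6 and 13.9 in SkMel-19. All SkMel-19 arrays lay below the filter signal and the Malme3M arrays above it (difference -3.53, SE 0.28, limma adjusted p = 0.00522).

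IER2, another immediate early gene, began at similar levels and ended apart, with 1555, 188.9 and 161.9 in Malme3M and 1925, 707.6 and 754.5 in SkMel-19 (difference -1.68, SE 0.18, limma adjusted p = 0.00888). ELK3, an ETS-family factor of the ternary complex class, fell 5.36-fold in Malme3M and 2.34-fold in SkMel-19 (difference -1.19, SE 0.22, and -0.67 with the median of ELK3 probe sets). MAFF, a small MAF factor, fell in both (difference -1.07, SE 0.21). FOSL2, a FOS-family factor, went the other way, rising in SkMel-19 from 113.9 to 238.4 and 296.1 while Malme3M gave 410.0, 332.3 and 353.2, with no call in that line. The lines approached each other with the drug (difference -1.39, SE 0.24, limma adjusted p = 0.0300, and -0.80 with the median of FOSL2 probe sets).

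For other classical targets the difference did not pass the test. MYC, the growth regulator, fell 6.08-fold in Malme3M and 6.86-fold in SkMel-19 (difference 0.17, SE 0.17, limma adjusted p = 0.66). The ETS factor ETV5 fell 12.1-fold and 12.3-fold (difference 0.03, SE 0.22), and the FOS-family FOSL1 went from 508.5 to 33.6 and 35.4 in Malme3M and from 869.1 to 68.7 and 79.9 in SkMel-19 (difference -0.13, SE 0.25, and 0.76 with dim signals raised to the filter). ETV4 gave -0.60 (SE 0.20, limma adjusted p = 0.175).

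CCND1, the gene of cyclin D1, a driver of the G1 to S transition, was called, as 1 of 36 G1/S and DNA replication genes, against 209 of all 7178 genes. Its signal was 3332, 132.1 and 131.3 in Malme3M and 2091, 184.7 and 216.7 in SkMel-19. The higher line with DMSO was the lower line with drug (difference -1.23, SE 0.19, limma adjusted p = 0.0245). Over all 36, CCND1 included, 16 genes fell in Malme3M and 17 in SkMel-19, against 1034 and 625 of all 7178 genes. The median difference was 0.13. Of the 39 G2/M genes and 19 CDK inhibitor and quiescence genes 0 were called, with medians of -0.06 and 0.16.

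Among secreted factors, 2 of 10 tested were called lower, against 142 of all 7178 genes. LIF, a cytokine of the interleukin-6 family, fell from 905.5 to 40.9 and 38.2 in Malme3M and stood at 19.6, 2.4 and 3.2 in SkMel-19. All SkMel-19 arrays and the treated Malme3M arrays were below the filter signal (difference -3.06, SE 0.32, limma adjusted p = 0.00851). With a pseudocount of 1 the LIF difference was -2.04 and was not called (limma adjusted p = 0.124). IGFBP3, the other, moved in opposite directions and is described with those genes.

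**Figure D2:**
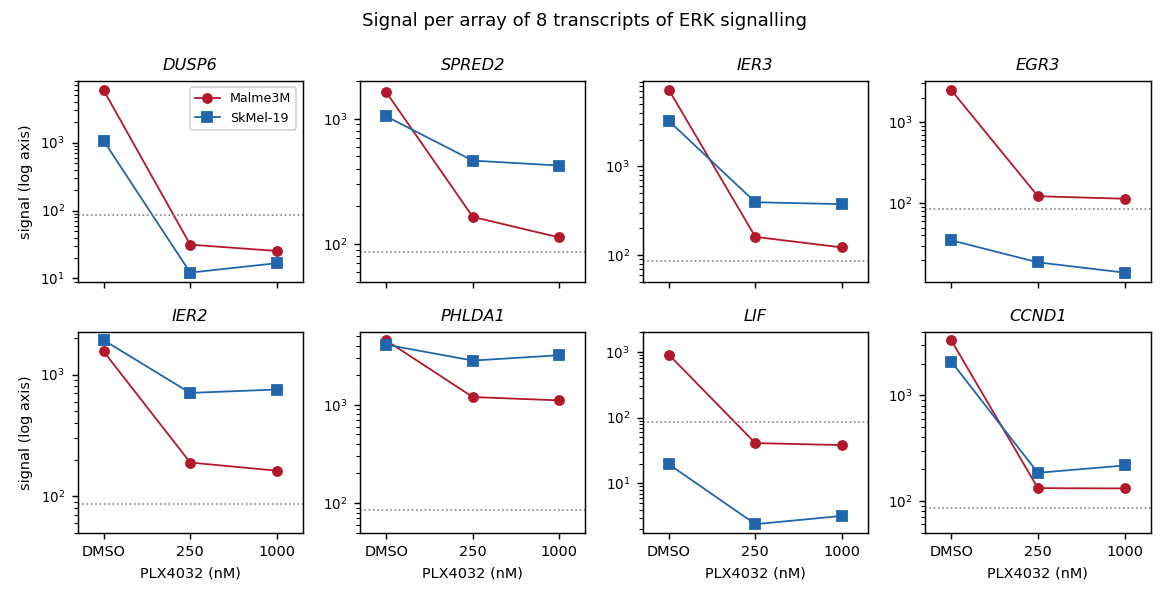
Signal (log axis) of 8 transcripts of ERK signalling with DMSO and at 250 and 1000 nM PLX4032, 1 array per point, Malme3M as red circles and SkMel-19 as blue squares, with the filter signal of 85.7 dotted. For SPRED2, IER2 and PHLDA1 the lines begin within 2-fold of each other and Malme3M ends lower, whereas DUSP6, EGR3 and LIF begin higher in Malme3M and stay higher.

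Of the 68 genes that fell in Malme3M while SkMel-19 had no call, CHST2, ST3GAL1, CEACAM1, SMTN and CNIH3 were named by their size. CHST2, a Golgi sulfotransferase, fell from 775.9 to 78.2 and 70.2 in Malme3M, and stood at 116.6, 81.4 and 85.6 in SkMel-19. The treated Malme3M arrays and the treated SkMel-19 arrays were all under the filter signal, those of Malme3M lower (difference -2.76, SE 0.25, limma adjusted p = 0.00522). ST3GAL1, a sialyltransferase, began alike, at 214.6 in Malme3M and 167.5 in SkMel-19, and at the 2 doses stood at 30.2 and 33.2 against 154.5 and 151.7 (difference -2.25, SE 0.26, limma adjusted p = 0.0102). The treated Malme3M arrays lay under the filter signal, and with such signals raised to it the ST3GAL1 difference was -1.09.

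CEACAM1, an adhesion molecule, began at 497.6 in Malme3M and 488.5 in SkMel-19, and ended at 62.2 and 49.5 in the first and at 387.4 and 310.1 in the second (difference -2.43, SE 0.28, limma adjusted p = 0.0102). The treated arrays did not overlap. Other CEACAM1 probe sets gave smaller differences of -0.39, -1.0 and -1.23, and with the median over them the difference of -1.02 was not called (limma adjusted p = 0.116). SMTN, the actin-binding protein smoothelin, fell from 882.9 to 159.0 and 163.1 in Malme3M against 375.9, 302.0 and 303.7 in SkMel-19 (difference -2.07, SE 0.18, limma adjusted p = 0.00522). CNIH3, an auxiliary subunit of AMPA receptors, fell from 1845 to 347.3 and 464.4, while SkMel-19 lay between 22.3 and 25.7 on its 3 arrays (difference -2.09, SE 0.30, limma adjusted p = 0.0194).

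Of 40 cytoskeleton, adhesion and matrix genes 3 were called lower and 0 higher, against 142 and 67 of all 7178 genes. Their median difference was -0.30. PLAUR, the urokinase receptor, differed by -1.28 (SE 0.20), although its other probe sets gave 0.29 and -0.55. NEDD9, a scaffold of focal adhesions, differed by -1.05 (SE 0.19), and the actin cross-linker ACTN4, which fell 1.69-fold in Malme3M and 1.02-fold in SkMel-19, by -0.72 (SE 0.14).

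Among 18 WNT and Notch genes the 2 calls were lower, against 142 of all 7178 genes. LEF1, the DNA-binding partner of beta-catenin, fell from 4630 to 511.9 and 405.7 in Malme3M and from 1015 to 405.4 and 384.5 in SkMel-19. The lines began more than 4-fold apart and ended at near levels (difference -1.98, SE 0.21, limma adjusted p = 0.00851). HEY1, a repressor downstream of Notch, fell 7.15-fold and 4.08-fold (difference -0.81, SE 0.13). SMAD3, which carries TGF-beta signals, fell 2.08-fold in Malme3M without a call in SkMel-19 (difference -1.17, SE 0.20, limma adjusted p = 0.0325).

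Of 11 NF-kB targets 3 were called lower, IER3 among them, against 142 of all 7178 genes. The median difference of the list was -0.21. NFKBIE, an inhibitor that holds NF-kB in the cytoplasm, fell from 379.2 to 131.0 and 103.4 in Malme3M against 154.8, 156.0 and 157.6 in SkMel-19 (difference -1.62, SE 0.26, limma adjusted p = 0.0260). ICAM1, an adhesion receptor for leukocytes, fell 3.94-fold and 1.80-fold (difference -1.13, SE 0.19), and its other probe sets gave -1.19 and -0.40.

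Genes of apoptosis were few. PMAIP1, the pro-apoptotic BH3-only protein NOXA, fell from 353.5 to 79.4 and 102.7 in Malme3M, and SkMel-19, without a call, gave 671.3, 428.8 and 466.8 (difference -1.26, SE 0.25, limma adjusted p = 0.0451). TNFRSF10B, a death receptor for TRAIL, fell 1.42-fold in Malme3M (difference -0.64, SE 0.13). BCL2A1, an anti-apoptotic member of the BCL2 family, rose 1.48-fold in SkMel-19 with no call in Malme3M (difference -0.78, SE 0.14, limma adjusted p = 0.0323). Among 21 p53 targets and 15 BCL2 family genes these were the 2 calls of each list, PMAIP1 being in both. Over all 7178 genes 142 were called lower. The list medians of 0.15 and 0.13 lay above 0.

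In the cholesterol and fatty acid lists 4 transcripts had a called difference, and synthesis itself was not measured. Of 22 cholesterol genes 3 were called lower and 0 higher (median difference -0.26), and of 18 fatty acid genes 1 was called lower (median -0.03). Over all 7178 genes 142 were called lower and 67 higher. INSIG2, which retains the sterol sensor SCAP in the endoplasmic reticulum, fell from 458.3 to 177.9 and 204.7 in Malme3M and gave 314.7, 344.6 and 363.6 in SkMel-19 (difference -1.38, SE 0.21, limma adjusted p = 0.0226). The enzymes MSMO1 and SQLE fell in both lines, MSMO1 by 3.53-fold and 1.56-fold (difference -1.18, SE 0.22) and SQLE by 3.10-fold and 1.48-fold (difference -1.06, SE 0.19, and -0.68 with the median of SQLE probe sets). FASN, the fatty acid synthase, fell from 5590 to 2448 and 2392 in Malme3M while SkMel-19 gave 2330, 2091 and 1804 (difference -0.94, SE 0.14, limma adjusted p = 0.0226, and -0.32 with the median of FASN probe sets).

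SLC20A1, a sodium-dependent phosphate transporter, was called under every one of the 16 alternative settings. It fell from 5336 to 711.1 and 605.1 in Malme3M and from 2949 to 1502 and 1352 in SkMel-19. Malme3M began higher and ended lower (difference -1.96, SE 0.17, limma adjusted p = 0.00522). It is 1 of 16 tested in the list of amino acid and nutrient transporters, and 142 of all 7178 genes were called lower. The other call in that list was SLC6A15, a carrier of neutral amino acids, which rose more in Malme3M (3.30-fold against 1.54-fold, difference 1.10, SE 0.22, limma adjusted p = 0.0488).

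In 20 genes the lines moved in opposite directions, 14 with the fall and 6 with the rise in Malme3M, and the difference itself was called in 19 of them, WIPF2 being the exception. IGFBP3, which binds insulin-like growth factors outside the cell, had the largest such difference. Its signal was 3892, 973.5 and 1007 in Malme3M and 201.7, 330.0 and 299.6 in SkMel-19. The lines did not overlap but drew nearer to each other (difference -2.57, SE 0.16, limma adjusted p = 0.0041), and another probe set gave -2.01. It was called under all 16 alternative settings.

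SLC5A3, a myo-inositol transporter, fell from 2701 to 1662 and 1419 in Malme3M and rose from 677.6 to 1198 and 1038 in SkMel-19 (difference -1.52, SE 0.18, limma adjusted p = 0.0123). OPN3, a non-visual opsin, crossed over, from 861.7 to 523.6 and 492.0 in Malme3M and from 587.9 to 886.5 and 826.7 in SkMel-19 (difference -1.28, SE 0.16, limma adjusted p = 0.0124). GPRC5B, an orphan receptor, crossed likewise, with 2858, 2348 and 2346 against 1897, 3793 and 3449 (difference -1.21, SE 0.12, limma adjusted p = 0.00749). For both the line that was brighter with DMSO was the dimmer with drug.

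Smaller opposite movements were seen for LCP2, a signalling adaptor known from T cells (difference -1.18, SE 0.19), for SERINC5, a membrane protein that restricts retroviruses (-1.13, SE 0.21), and for SLC27A3, an acyl-CoA synthetase (-1.31, SE 0.15), whose SkMel-19 signal of 79.5 to 117.4 was close to the filter while that of Malme3M was 8093, 4400 and 4426.

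With the opposite sign, DAB2, a clathrin adaptor, rose from 903.3 to 1469 and 1397 in Malme3M and fell from 1044 to 636.7 and 689.8 in SkMel-19. The lines began alike and separated (difference 1.31, SE 0.14, limma adjusted p = 0.00991), 3 other probe sets gave 1.15 to 1.27, and it too was called under all 16 alternative settings. TSC22D1, a leucine-zipper protein induced by TGF-beta, rose from 4515 to 6046 and 6602 in Malme3M and fell from 1176 to 514.8 and 642.6 in SkMel-19 (difference 1.5, SE 0.19, limma adjusted p = 0.0127). ID4, which blocks basic helix-loop-helix factors, rose from 666.0 to 1164 and 1042 in Malme3M and fell from 102.0 to 46.3 and 46.2 in SkMel-19 (difference 1.68, SE 0.21, limma adjusted p = 0.0126). Its treated SkMel-19 arrays lay under the filter signal, another ID4 probe set gave only 0.10, and the difference was 0.94 with dim signals raised to the filter and 0.65 with the median of its probe sets.

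**Figure D3:**
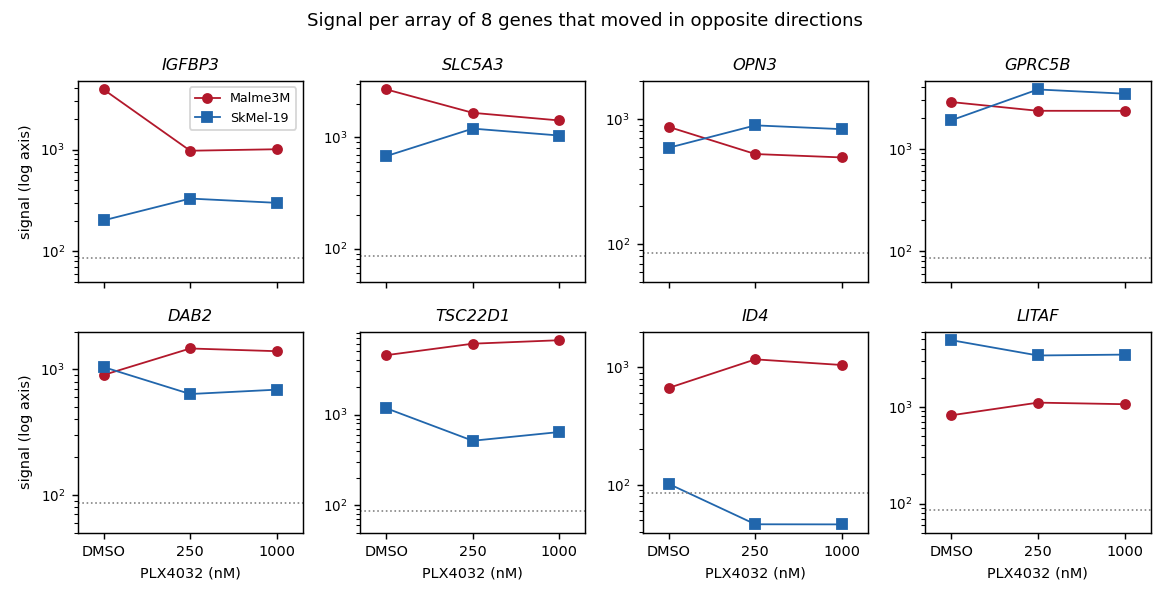
Signal (log axis) of 8 of the 20 genes that moved in opposite directions, with DMSO and at 250 and 1000 nM PLX4032, 1 array per point, Malme3M as red circles and SkMel-19 as blue squares, with the filter signal of 85.7 dotted. The top row fell in Malme3M and rose in SkMel-19, the bottom row did the reverse, and OPN3, GPRC5B and DAB2 cross.

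Other genes rose in Malme3M and rose less, or were not called, in SkMel-19. SPOCK1, a secreted proteoglycan, rose from 63.9 to 398.9 and 361.0 in Malme3M and stood at 59.9, 74.4 and 67.8 in SkMel-19. The lines began alike, both under the filter signal, and separated with drug (difference 2.16, SE 0.25, limma adjusted p = 0.0110). PRODH, the mitochondrial enzyme that begins proline breakdown, rose from 194.2 to 1089 and 1191 in Malme3M and from 156.6 to 311.1 and 274.9 in SkMel-19 (difference 1.63, SE 0.20, limma adjusted p = 0.0123). MTCL1, a microtubule cross-linking protein, rose 3.95-fold and 1.44-fold from near levels (difference 1.46, SE 0.18).

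CDH3, or P-cadherin, rose from 244.1 to 1017 and 1055 in Malme3M and from 3434 to 5315 and 4987 in SkMel-19, so the line with the lower level rose more and remained lower (difference 1.45, SE 0.12, limma adjusted p = 0.00522). TBL1X, a subunit of a nuclear corepressor complex, rose from 27.0 to 73.7 and 90.0 in Malme3M and, without a call, gave 451.3, 326.6 and 301.2 in SkMel-19. Most of that rise lies under the filter signal, and with dim signals raised to it the difference of 1.77 (SE 0.26) became 0.54, and with the median of TBL1X probe sets 0.88. RUNDC3A likewise went from 26.5 to 135.0 and 127.4 in Malme3M (difference 1.86, SE 0.28), and its difference became 0.55, and 1.16 with the median of RUNDC3A probe sets.

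In another set the change belonged to SkMel-19. CREM, a transcription factor of the cAMP response, fell in that line from 1341 to 529.2 and 508.9 and gave 313.9, 354.1 and 432.6 in Malme3M, with no call there (difference 1.66, SE 0.20, limma adjusted p = 0.0126), and its other probe sets gave 1.5 and 1.8. TGFBI, a matrix protein induced by TGF-beta, fell from 643.8 to 308.8 and 308.2 in SkMel-19, while the Malme3M arrays lay between 2226 and 2290 (difference 1.00, SE 0.13, limma adjusted p = 0.0146). The antisense RNA gene SLC67A1-AS fell in both, from 153.0 to 59.0 and 64.0 in Malme3M and from 943.4 to 116.2 and 123.3 in SkMel-19 (difference 1.69, SE 0.24).

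Of 26 genes in the melanosome and pigment synthesis list 5 were called higher and 1 lower, against 67 and 142 of all 7178 genes. The 1 lower was BCL2A1 (-0.78), given above with the genes of apoptosis. MITF itself was called in neither line, with 5931, 6928 and 6357 in Malme3M and 5493, 5618 and 6068 in SkMel-19 (difference 0.07, SE 0.12, limma adjusted p = 0.812). TRPM1, the melanocyte channel melastatin, rose from 52.4 to 303.2 and 330.1 in Malme3M and from 366.4 to 659.6 and 776.2 in SkMel-19 (difference 1.41, SE 0.22, limma adjusted p = 0.0226, 0.80 with dim signals raised to the filter and 0.66 with the median of TRPM1 probe sets). Malme3M remained below the starting level of SkMel-19.

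TFAP2A, a neural crest factor that acts beside MITF, rose from 3573 to 7426 and 7273 in Malme3M and gave 7554, 8619 and 8841 in SkMel-19 without a call. Malme3M thus reached the untreated level of SkMel-19 (difference 0.83, SE 0.10, limma adjusted p = 0.0105, and 0.45 with the median of TFAP2A probe sets). The kinase DSTYK fell 1.88-fold in SkMel-19 with no call in Malme3M (difference 1.17, SE 0.18). TYRP1, an enzyme of melanin synthesis, and RAB38, a GTPase of melanosome transport, were called at 0.75 (SE 0.15) and 0.71 (SE 0.11). Across the list the lines were close, with 13 of 26 genes rising in Malme3M, 15 in SkMel-19 and a median difference of -0.04. Of all 7178 genes 1247 rose in Malme3M and 768 in SkMel-19.

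Of 18 neural crest and EMT genes 2 were called higher and 1 lower, against 67 and 142 of all 7178 genes. SNAI2, the transcription factor SLUG, rose from 2365 to 5987 and 5707 in Malme3M and gave 2382, 2769 and 3318 in SkMel-19 without a call. Equal at the start, the lines stood apart at both doses (difference 0.96, SE 0.16, limma adjusted p = 0.0287). CDH1, or E-cadherin, rose in SkMel-19 from 98.6 to 207.8 and 186.4 with Malme3M at 4537, 4768 and 5034 (difference -0.81, SE 0.15, limma adjusted p = 0.0443), although another probe set gave -0.10 and the median of CDH1 probe sets -0.45. The paralogous subunits of hypoxia-inducible factor differed in opposite directions. EPAS1 rose 3.07-fold in Malme3M and 1.58-fold in SkMel-19 (difference 0.96, SE 0.13, limma adjusted p = 0.0174), and HIF1A fell 1.83-fold in Malme3M without a call in SkMel-19 (difference -0.68, SE 0.11, limma adjusted p = 0.0257).

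Several programmes had no gene with a called difference, against 209 of all 7178 genes. At that share lists of this size would hold few calls or none, so a count of 0 does not set them apart. In nucleolus and ribosome biogenesis 23 of 32 genes fell in Malme3M and 24 in SkMel-19, against 1034 and 625 of all 7178 genes. Their median responses were -0.70 and -0.77, with a median difference of 0.03. The smallest p-values there were those of RRP1B (0.43, SE 0.12) and the helicase DDX21 (-0.51, SE 0.16). Lysosome genes rose in 13 and 15 of 31 (median difference -0.05, with WIPI1 at -0.64 and MCOLN1 at 0.56). ATF4 and unfolded protein response genes rose in 15 and 12 of 35 (median -0.01, with the chaperone HSPA5 at -0.48 and CEBPB at 1.11). Rises over all 7178 genes numbered 1247 in Malme3M and 768 in SkMel-19. Within the RAS, RAF, MEK and ERK genes 0 of 13 were called, ERK1 itself (MAPK3) giving -0.84 (SE 0.19, limma adjusted p = 0.0627) and HRAS -0.49 (SE 0.17).

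The other lists without a call were receptor tyrosine kinases (12 tested, with ERBB3 at -0.58 and TYRO3 at -0.57), nucleotide and one-carbon enzymes (21, ATIC at -0.43 and PRPS2 at 0.43), glycolysis (25, PFKFB3 at -0.84 and PDK4 at -0.76), mitochondrial genes (28, PPARGC1A at 0.75 and CYCS at -0.49), interferon and antigen presentation (30, ISG20 at -0.64 and IFI44 at 1.01), heat shock proteins (17, DNAJB1 at -0.55 and HSPB1 at 0.45), and NRF2 and metallothionein genes (19, SLC30A1 at -0.88 and MT1F at 0.55). Their median differences lay between -0.07 and 0.24. PPARGC1A, a coactivator of mitochondrial genes, rose 5.60-fold in Malme3M and 3.32-fold in SkMel-19, a difference that missed the threshold (SE 0.16, limma adjusted p = 0.0561). The 11 reference genes had 0 calls, 0 at an unadjusted limma p under 0.05 and a median difference of -0.05. At that unadjusted level, which 1329 of all 7178 genes reached, the lists without a call held 3 RAS, RAF, MEK and ERK genes, 5 receptor tyrosine kinases, 4 G2/M genes, 9 CDK inhibitor and quiescence genes, 7 ATF4 genes, 7 nucleolar genes and 6 lysosome genes. The glycolysis list held 5, interferon 6, mitochondria and heat shock 3 each, and nucleotide enzymes and NRF2 genes 2 each. The cell cycle examples nearest the threshold were KIF14 (-0.60) and KIF20A (0.35), and among quiescence genes CDKN1C (-0.99) and IRS2 (-0.41).

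**Figure D4:**
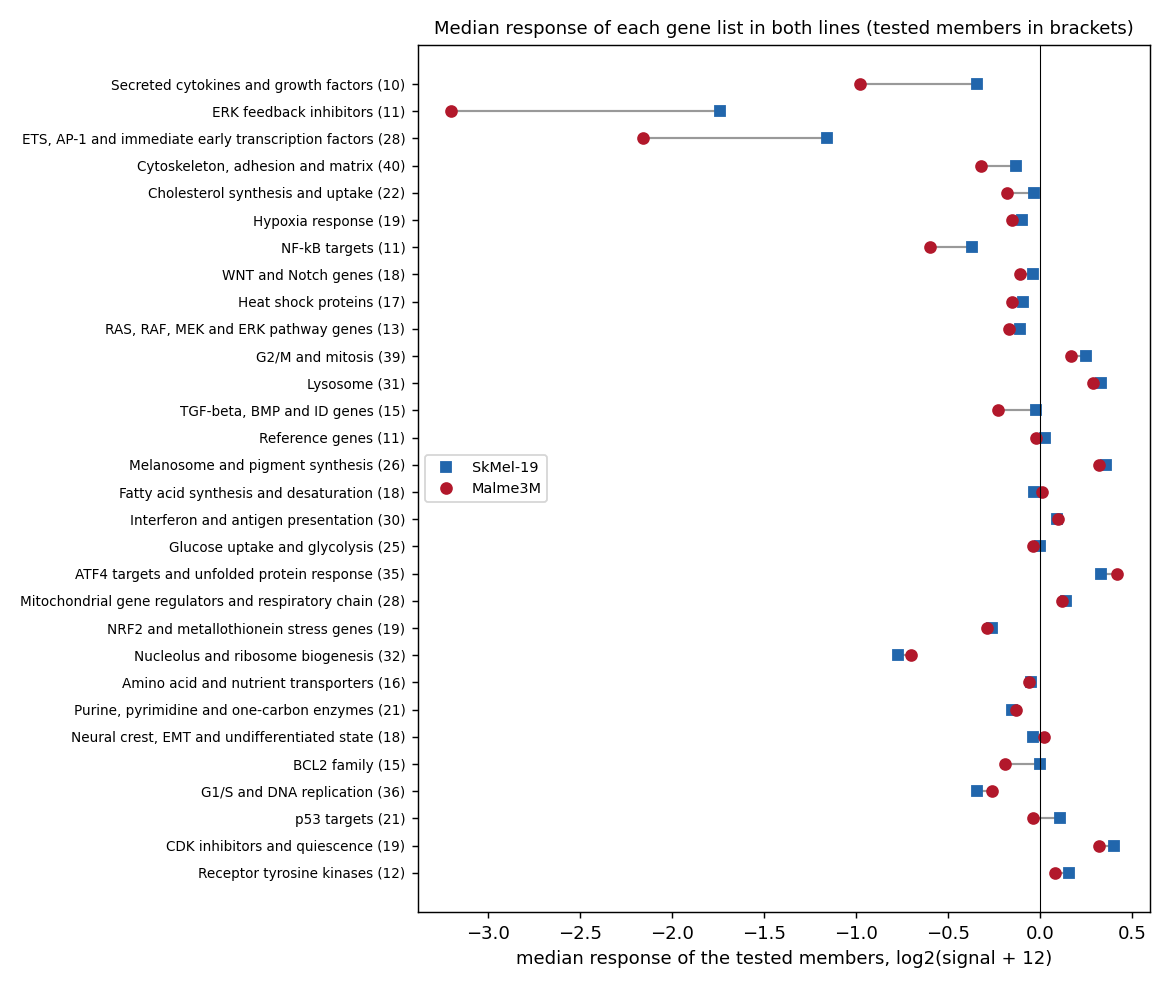
Median response of the tested members of each of 30 gene lists in Malme3M (red circles) and SkMel-19 (blue squares), on the log2(signal + 12) scale, sorted by the median difference, with the number of tested members in brackets. ERK feedback inhibitors stand at -3.20 and -1.74, and most other lists lie close together.

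The other 3 lines, with 1 array each for DMSO and 250 nM, show which of the lines stood apart at that dose. In 48 of the 142 lower genes (33.8%) only the Malme3M response lay outside the range of SkMel-1, SkMel-5 and SkMel-28, and in 12 (8.45%) only that of SkMel-19, against 21.08% and 18.35% of all genes tested. In the 67 higher genes the counts were 23 (34.33%) and 13 (19.4%). Both lines lay outside in 77 lower and 29 higher genes, against 2011 of all 7178. These genes were chosen for the distance between the lines, partly at this dose, so the counts are a description.

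IER3 gave -5.42 in Malme3M at 250 nM, against -3.02 in SkMel-19 and -4.02, -2.56 and -2.52 in SkMel-1, SkMel-5 and SkMel-28. SMTN gave -2.39 in Malme3M, -0.30 in SkMel-19 and -0.71, -0.49 and 0.12 in the other lines, and SPOCK1 2.44, 0.27 and 0.01, 0.65 and 0.28. For EGR3 and ST3GAL1 the value nearest 0 was that of SkMel-19, where EGR3 was under the filter signal already with DMSO. EGR3 gave -0.61 there, -4.22 in Malme3M and -2.61, -2.21 and -2.74 elsewhere, and ST3GAL1 -0.11, -2.42 and -1.77, -1.27 and -1.42. For FOSL2 Malme3M was the exception, with -0.29 against 0.99 in SkMel-19 and 1.40, 0.86 and 1.94 in the others. CEACAM1 gave 0.75, -1.82 and -0.22 in the 3 lines, a spread that reached most of the way between SkMel-19 (-0.33) and Malme3M (-2.78).

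**Figure D5:**
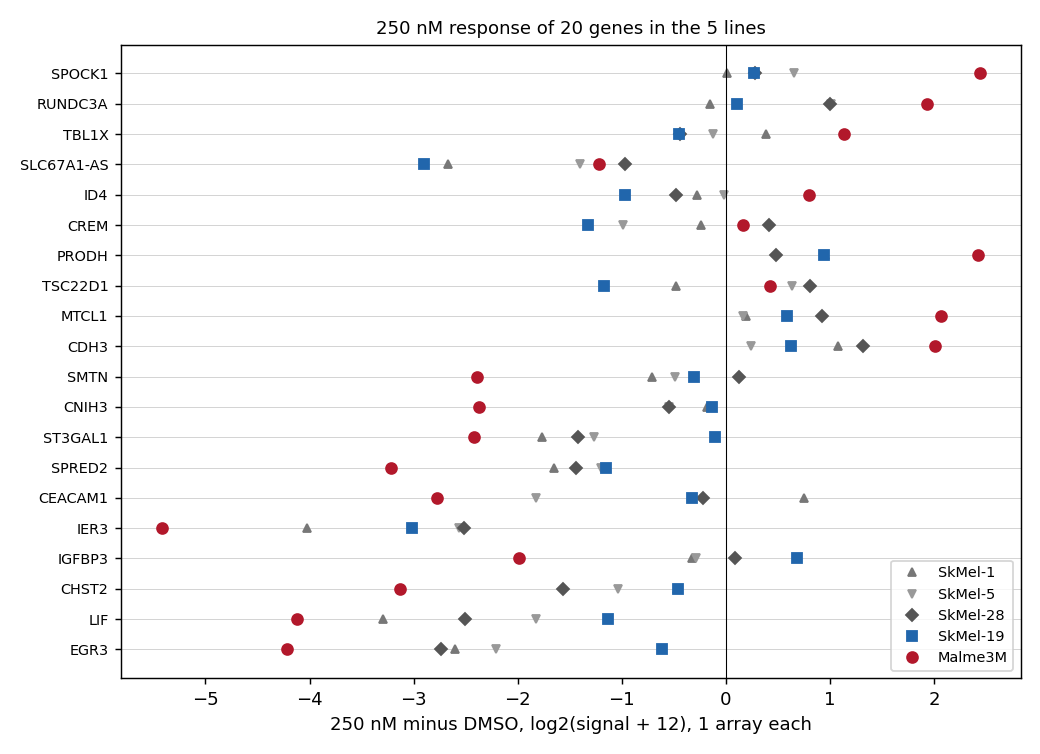
Response at 250 nM (250 nM array minus DMSO array, log2(signal + 12), x axis) of the 10 highest and 10 lowest named genes in the 5 lines, 1 array per condition, Malme3M as red circles, SkMel-19 as blue squares and the other lines in grey. For SPOCK1, PRODH, SMTN, CNIH3 and IGFBP3 Malme3M lies apart from the other 4 points, and for EGR3, LIF, ST3GAL1 and CHST2 both lines lie at the ends.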

How the data were processed

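Biotin-labelled cRNA made from total RNA was measured on Affymetrix arrays, per the labels' protocols. The deposited intensities were made by the authors with GCOS, per the submitters' processing notes, which state no version. Probe summarisation and background treatment were not given in the sources used here. For each array the mean without its lowest and highest 2% lies between 499.9 and 501.1, so values were used as deposited.

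Of 22277 probe sets, 62 were controls, 19064 carried 1 gene symbol, 1043 several and 2108 none, and 19052 were matched by Entrez ID. Each of 11963 genes took the values of its brightest probe set by mean log2(signal + 12), and the 7178 at or above the 40th percentile (6.61, or 85.7 in signal) entered the test. limma 3.58.1 in R 4.3.3 fitted the 4 means of line and treatment to the 6 arrays, with a variance prior that followed mean level, 2 residual degrees of freedom and Benjamini-Hochberg adjustment. The median SE of a difference was 0.18. The number of arrays limits the precision, and p-values measure only the spread between these arrays.

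Named genes are the 10 highest and 10 lowest called differences by the smaller of both doses, 12 fixed genes, up to 10 genes called in opposite directions, and up to 4 called members per list or the 2 with the smallest p. Genes and lists were chosen with earlier results of these data known. MAFF, TYRP1 and RAB38 complete small counts and, with CEMIP, WIPF2 and LITAF, lie outside that rule. In simulated data with 200 changed genes among 7178, 58% were recovered at a log2 difference of 1, 94% at 2 and 100% at 3 and 4. Of the simulated calls, 5.07% were unchanged genes. All simulated arrays, DMSO included, took their noise from the fitted variance prior. That prior leaves out the spread between DMSO cultures, so these rates do not carry over to the data. Promoter letters are RefSeq's on GRCh38.p14. Plots were made with Python 3.11.15 and matplotlib 3.10.9. The alternatives in the closing section changed the pseudocount, filter, normalization, probe set, prior, dose term, arrays in the fit and each treated array.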

Additional observations from a re-analysis of the deposited data

Results flagged for a closer look

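The responses of Malme3M and SkMel-19 differed by the test of the difference itself (limma adjusted p under 0.05) in 58 of the 93 named genes. Many genes were named because they were called, so this is no rate, and over all genes tested 209 of 7178 were called. All values are log2 differences, the response of Malme3M minus that of SkMel-19, and SEs stand in the report. Among ERK outputs they were -3.53 for EGR3, -2.55 for IER3, -2.25 for SPRED2, -1.85 for DUSP6 and -1.68 for IER2. PHLDA1 gave -1.52, CCND1 -1.23 and ELK3 -1.19. The FOS-family factor FOSL2, which rose in SkMel-19 with no call in Malme3M, gave -1.39.

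Among secreted factors, adhesion, cytoskeletal and glycan genes they were -3.06 for LIF, -2.76 for CHST2, -2.57 for IGFBP3, -2.43 for CEACAM1, -2.25 for ST3GAL1, -2.07 for SMTN, -1.28 for PLAUR, -1.13 for ICAM1, -1.05 for NEDD9, -0.81 for CDH1, -0.72 for ACTN4, 1.00 for TGFBI, 1.45 for CDH3 and 2.16 for SPOCK1. Membrane proteins and transporters gave -2.09 for CNIH3, -1.96 for SLC20A1, -1.52 for SLC5A3, -1.31 for SLC27A3, -1.28 for OPN3, -1.21 for GPRC5B, -1.13 for SERINC5 and 1.10 for SLC6A15.

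Transcription factors and signalling genes outside the ERK lists gave -1.98 for LEF1, -1.62 for NFKBIE, -1.18 for LCP2, -1.17 for SMAD3, -0.81 for HEY1, -0.68 for HIF1A, 0.96 for SNAI2, 0.96 for EPAS1, 1.5 for TSC22D1, 1.66 for CREM, 1.68 for ID4 and 1.77 for TBL1X. Lipid genes gave -1.38 for INSIG2, -1.18 for MSMO1, -1.06 for SQLE and -0.94 for FASN. Genes of apoptosis gave -1.26 for PMAIP1, -0.78 for BCL2A1 and -0.64 for TNFRSF10B. The pigment list, which also holds BCL2A1, gave 0.83 for TFAP2A, 1.17 for DSTYK and 1.41 for TRPM1. The others were 1.31 for DAB2, 1.46 for MTCL1, 1.63 for PRODH, 1.69 for SLC67A1-AS and 1.86 for RUNDC3A.

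In 15 of the 58 at least 1 of the 6 arrays lay under the filter signal. Of 41 other probe sets of these genes above the filter, 1 had the opposite sign and 6 the same sign with a much smaller size.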

How the results depend on the processing

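The counts of calls depended on the settings. Among these, the fit to all 12 arrays gave SkMel-1, SkMel-5 and SkMel-28 a common response, and differences among their responses count there as error. Against 67 genes called higher and 142 lower, the counts were 11 and 30 with no filter, 26 and 39 with signals under the filter raised to it, 37 and 88 with the median of a gene's probe sets, 18 and 46 with no trend in the prior, 13 and 37 with a dose term (1 residual degree of freedom), and 5 and 14 with all 12 arrays. With 1 treated array left out in turn they ran from 21 to 80 and from 53 to 177, the line left with 1 treated array being assumed to vary like the others. The response of Malme3M (2281 genes) gave 1346 with all 12 arrays and 1840 to 2111 with 1 array left out. That of SkMel-19 (1393 genes) gave 879 with no filter, 879 with dim signals raised, 585 with all 12 arrays and 649 to 1591 with 1 array left out. Genes past 1 on the log2 scale at both doses (32 higher, 98 lower) numbered 216 and 231 with no filter, 16 and 46 with a 60th percentile filter, 221 and 333 at 1.5-fold, and 1 and 9 at 2 on the log2 scale. The 60th percentile filter and the median of probe sets were added for this count after the data were seen. The higher share of calls, 32.1%, ran from 26.0% to 40% over the settings. None of the 209 calls changed sign except 4 with the median of probe sets. Having no filter, the 60th percentile filter, either change of prior, the dose term and all 12 arrays leave a gene's difference unchanged. No sign could change under those settings, here or in the pairs that follow. Over 58 named genes and up to 16 alternatives each, 637 of 908 pairs kept the call, 271 kept the direction only and 0 reversed, with 13 of the 58 called with all 12 arrays and 28 with a dose term. The cause was not tested where a count moved. The labels give no replicate numbers. The doses match the treated arrays across the lines, and the fit with a dose term is that matched fit.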
